A study of Mus musculus with 8 samples.

Results

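The A-kinase anchoring proteins are represented here by 9 genes, *Akap12*, *Akap1*, *Akap2*, *Akap8*, *Akap8l*, *Akap9*, *Akap10*, *Akap11* and *Akap13*. Every probe whose platform annotation carried one of these symbols was taken, which gave 31 of the 45281 probes and 9 of the 19057 gene symbols on the array. Of these 31 probes, 25 could be placed in both the signal table and the value table, 6 could be placed in the value table only, and 20 were detected on at least 4 of the 8 arrays and were tested. Each probe was kept apart, because the probes of *Akap12* gave different answers.

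The arrays compared *Bapx1*-EGFP positive cells sorted by FACS from the spleen of E12.5 mouse embryos of strain C57BL/6J;129, 4 arrays labelled *Bapx1* wildtype and 4 labelled *Bapx1* null. Wildtype embryos carried a reporter allele in which EGFP is translated through an internal ribosomal entry site placed in the 3′ UTR of an intact *Bapx1* gene. Null embryos were homozygous for an allele in which EGFP sits directly behind the *Bapx1* start codon, and the selection cassette had been removed from both alleles. The labels call each replicate a sorted population, and how many embryos went into one is not given in the sources used here. EGFP reports activity of the *Bapx1* promoter in both groups, at a stage when the spleen anlage has only begun to part from the pancreatic mesenchyme. The reporter allele, its number of copies as the paper writes the genotypes, the mouse line and the cells that pass the sort all change together with the genotype, and their effects and those of *Bapx1* loss cannot be told apart.

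A-kinase anchoring proteins hold cAMP-dependent protein kinase (PKA) at chosen sites in the cell by binding the regulatory subunits of the kinase. Most of them also bind other kinases, phosphatases or phosphodiesterases, so that a cAMP signal is received and switched off at one place. *Akap12*, also known as gravin or SSeCKS, is a scaffold at the plasma membrane and the cortical cytoskeleton of many mesenchymal cells, where it binds PKA, protein kinase C, Src and calcineurin.

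Per array 19019 to 20152 probes (42.0 to 44.5%) were detected above background. Both probes of the targeted gene, *Bapx1* (current symbol *Nkx3-2*), gave a higher signal on the arrays labelled null. The log2 intensities were 4.53 to 4.80 (wildtype) and 6.76 to 7.37 (null) at ILMN_2687592. At ILMN_2687594 they were 4.47 to 4.74 (wildtype) and 6.44 to 7.06 (null). On the arrays labelled wildtype both probes lay near background. Whether these probes lie in a part of the gene that the null allele has lost was not examined, so they are no check of the labels, and wildtype and null below are the labels of the arrays. The null arrays resembled each other less (Pearson correlations of 0.9618 to 0.9905 over the tested probes) than the wildtype arrays did (0.985 to 0.9942). The mean level of 27 splicing regulators, set against its wildtype mean, ran from -0.21 to 0.10 on the wildtype arrays. On null replicates 1 to 4 it was -0.49, -0.75, -0.84 and -0.43. *Xist*, the RNA that coats the inactive X chromosome, measured 10.8 to 12.4 on wildtype and 9.18 to 9.91 on null arrays, on the log2 scale. No range overlapped between the genotypes for either measure. Of 8 spleen anlage markers, 5 were tested and summed to 8529 to 9226 on wildtype and 8773 to 10069 on null arrays. *Nkx2-5* and *Nkx2-3* were lower and *Barx1* and *Nkx3-2* itself higher in null cells. *Tlx1* was detected on fewer than 4 arrays and was not tested. In bulk RNA of sorted cells, fewer cells of a type and less RNA per cell cannot be told apart.

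The comparison of null with wildtype asked which of the anchoring proteins differ in expression between the genotypes. Of the 20 tested probes 9 were lower in null cells at an adjusted p under 0.05 (limma, two-sided, Benjamini-Hochberg over all 19841 tested probes). That is 45.0% of the member probes, beside 20.3% of all tested probes called lower and 41.9% called in either direction. No member probe was called higher, beside 21.6% of all tested probes, and 1 was higher at an unadjusted p under 0.05. The 9 probes belonged to 5 genes, *Akap12*, *Akap2*, *Akap9*, *Akap10* and *Akap11*. *Akap1*, *Akap8*, *Akap8l* and *Akap13* had no probe past the threshold. On 7 member probes the genotypes did not overlap, all 7 lower in null, beside 38.3% of all tested probes without overlap in either direction. The median log2 difference, null minus wildtype, was -0.36 over the 20 probes and 0.04 over all tested probes. Probes of one gene share their target, so the 20 probes stand for 9 genes and not for 20 separate measurements.

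**Figure D1:**
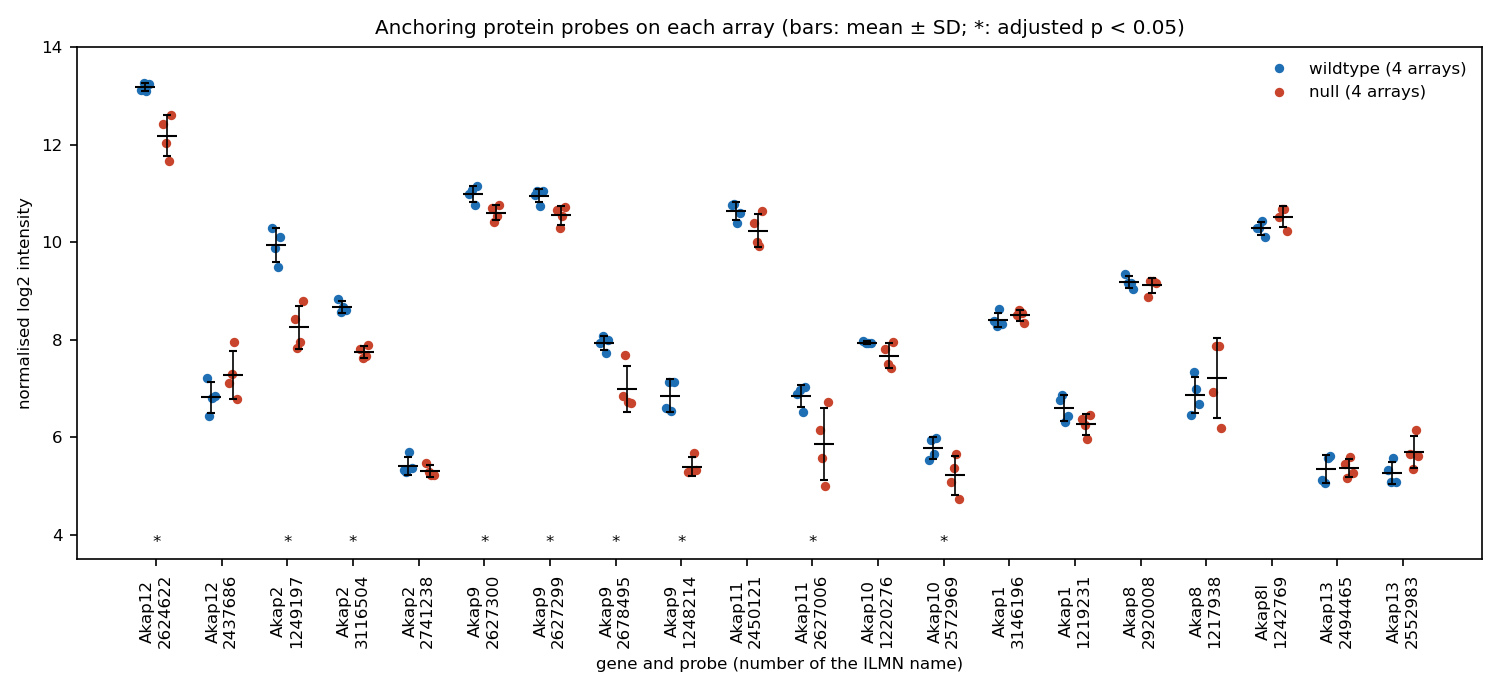
Normalised log2 intensity (vertical axis) of the 20 tested probes (horizontal axis, gene and probe number), with 1 point for each of 4 wildtype and 4 null arrays, mean and SD as bars, and a star where the adjusted p was under 0.05. At *Akap12* ILMN_2624622 all 4 null arrays lie at 11.67 to 12.60, below the wildtype arrays at 13.10 to 13.26, while at *Akap12* ILMN_2437686 the genotypes overlap.

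*Akap12* was measured by 2 probes designed on the same RefSeq transcript. At ILMN_2624622 wildtype replicates 1 to 4 had deposited signals of 10533.4, 8989.3, 9426.6 and 10215.0. Null replicates 1 to 4 had 4242.2, 4345.0, 2994.0 and 6348.7. Every null array was dimmer than every wildtype array, and null replicate 3 was the dimmest. After normalisation the log2 intensity was 13.11, 13.26, 13.10 and 13.25 in wildtype and 12.43, 12.04, 11.67 and 12.60 in null cells. The group levels were 13.18 ± 0.09 (SD, n = 4) and 12.18 ± 0.42, and null cells were 2.0-fold lower (log2 difference -1.0, SE 0.19, adjusted p = 0.0039, limma). The SD was larger among null than among wildtype arrays, with null replicates 2 and 3 below replicates 1 and 4. The study itself took up *Akap12* from these arrays, so its fall at this probe is not independent of that choice.

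At the other *Akap12* probe, ILMN_2437686, the deposited signal was 172.0, 69.0, 101.8 and 110.7 in wildtype and 88.0, 143.4, 196.3 and 91.8 in null cells. After normalisation wildtype replicates 1 to 4 read 7.21, 6.44, 6.80 and 6.84 on the log2 scale, and null replicates 7.12, 7.29, 7.95 and 6.78. The genotypes overlapped, and null replicate 3, the lowest array at ILMN_2624622, was the highest here. The log2 difference was 0.47 (95% interval -0.09 to 1.02, adjusted p = 0.157, limma). Without null replicate 4 it became 0.63 and passed the threshold (adjusted p = 0.0469). The probe was detected on all 8 arrays.

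The gap between both probes on each array is free of any shift that they share. Because these probes were kept apart for their known disagreement, their gap is given as a description, with no test. The log2 gap, ILMN_2624622 minus ILMN_2437686, was 5.90, 6.82, 6.30 and 6.41 in wildtype and 5.31, 4.75, 3.71 and 5.82 in null cells. Every null gap was smaller than every wildtype gap, and the mean gap shrank by 1.46 on the log2 scale. Under median absolute deviation scaling, named in the study's methods and applied here to log2 signals corrected for background, the gap shrank by 0.63. In the deposited value table the change in the gap was -1.37. For the probe pairs of the anchoring protein genes, 15 in all, the gaps were compared by an exact permutation test over the 70 splits of the arrays, two-sided, whose smallest p with 4 against 4 arrays is 0.0286. After adjustment over the 15 pairs a call needed at least 9 pairs at that value, and 6 had it, so none passed. The gaps were also fitted with limma over all 8384 probe pairs of all genes, a fit chosen after seeing the data, in which 30.2% of all pairs passed the threshold. Among the 4075 genes with at least 2 tested probes, the median absolute gap change between the brightest and next probe was 0.25. In 100 of them (2.45%) it was as large as that of *Akap12* or larger. The *Akap12* pair is among the 15, and its disagreement was known beforehand. Its place in these counts is therefore a description and no evidence that such a gap is rare.

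**Figure D2:**
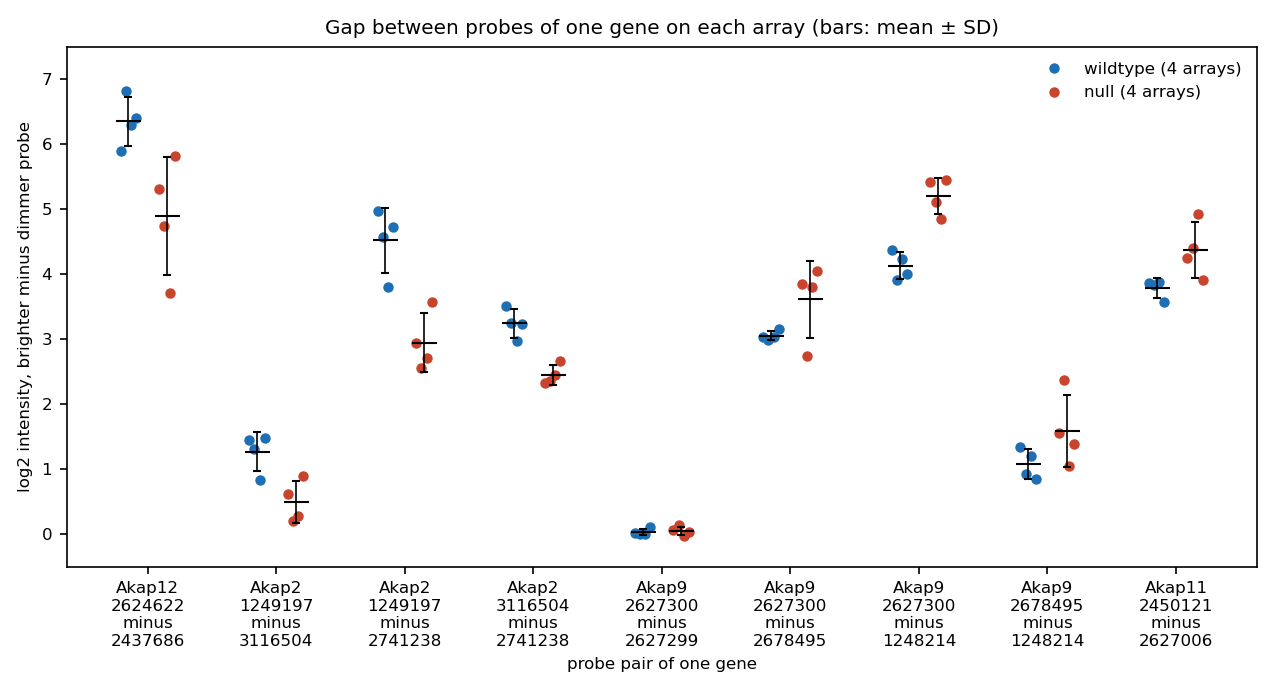
Log2 intensity of the brighter minus the dimmer probe of one gene (vertical axis) for 9 probe pairs (horizontal axis), with 1 point for each of 4 wildtype and 4 null arrays, and mean and SD as bars. The gap of *Akap12* is 5.90 to 6.82 on wildtype and 3.71 to 5.82 on null arrays, and that of *Akap9* ILMN_2627300 and ILMN_2627299 stays near 0 on all 8 arrays.

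Across the 8 arrays both *Akap12* probes ran against each other (Pearson r = -0.82), and so did their deviations from the genotype means (r = -0.87). At ILMN_2624622 these deviations were larger on the null arrays (SD 0.42) than on the wildtype arrays (SD 0.09), so the null arrays weigh more in the second value. These correlations rest on 8 arrays that fall into the genotypes, share their RNA with every other probe and carry the shared splicing regulator pattern above, and they are descriptions without a test. Among the brightest probes of all genes, those most like ILMN_2624622 over the 8 arrays were *Tipin*, a replication fork protein (r = 0.9984), *Osbpl9*, an oxysterol-binding protein relative (0.9975), *Cd1d1* (0.9956), *Tmem200a* (0.9952) and *Sun1*, a protein of the inner nuclear membrane (0.995). All 5 were lower in null cells, with log2 differences from -1.43 for *Tmem200a* to -0.43 for *Osbpl9*. Over deviations from the genotype means the 5 closest were *Rev1*, a translesion DNA polymerase (0.9952), *Tipin* (0.9947), *Ostc* and *Slc25a17* (0.9945 each) and *Rps4x*, a ribosomal protein (0.9927). *Tipin* was in both sets. The genes most like ILMN_2437686 over the 8 arrays were *Rad18*, a ubiquitin ligase of DNA repair (0.9874), *Riox1* (0.9687), *Nop58*, a nucleolar protein (0.9666), *Bud13* (0.9633) and *Mcu*, the pore of the mitochondrial calcium uniporter (0.9617). None of these 5 passed the threshold, and their log2 differences ran from 0.12 to 0.56. Over deviations from the genotype means *Rad18* (0.9844) and *Nop58* (0.9798) again led, followed by *Elmod2* (0.9653), *Tbl1x* (0.9652) and *Cmip* (0.9606). Among the probes of the other 8 anchoring proteins, *Akap11* ILMN_2627006 had the highest r with ILMN_2624622 on both measures (0.95 over the arrays, 0.97 over deviations). *Akap2* ILMN_1249197 gave 0.94 and 0.71 and *Akap10* ILMN_1220276 gave 0.91 and 0.93.

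*Akap2* fell at both of its bright probes. Its product binds PKA near the actin cytoskeleton, and in RefSeq the transcript it was designed on now belongs to *Pakap*, a locus that joins *Palm2* and *Akap2*. At ILMN_1249197 the log2 intensity was 10.29, 9.88, 9.50 and 10.10 in wildtype and 8.43, 7.84, 7.95 and 8.80 in null cells. The genotypes did not overlap, and null cells were 3.22-fold lower (log2 difference -1.69, SE 0.24, adjusted p = 0.00105). At ILMN_3116504 the values were 8.84, 8.56, 8.67 and 8.61 in wildtype and 7.81, 7.63, 7.67 and 7.89 in null cells. Here too every null array lay below every wildtype array, 1.89-fold lower (log2 difference -0.92, SE 0.10, adjusted p = 0.0003). At the third probe, ILMN_2741238, the levels were 5.42 ± 0.18 in wildtype and 5.30 ± 0.12 in null cells, with a difference of -0.12 (95% interval -0.37 to 0.14, adjusted p = 0.44). This probe lay near background, with deposited signals of 18.8 to 36.7. In the limma fit over all pairs, chosen after seeing the data, the fall at ILMN_1249197 exceeded that at ILMN_3116504 by 0.77 on the log2 scale (adjusted p = 0.0235). The per-array gaps overlapped, and the exact permutation test did not pass (p = 0.0571, adjusted p = 0.107 over the 15 pairs).

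*Akap9*, which anchors PKA at the centrosome and the Golgi apparatus, was lower in null cells at all 4 of its tested probes. At ILMN_2627300 the log2 intensity was 10.99, 11.06, 10.77 and 11.15 in wildtype and 10.71, 10.42, 10.53 and 10.77 in null cells. The highest null array and the lowest wildtype array both read 10.77 to 2 decimals and did not overlap, and the difference was -0.38 (SE 0.12, adjusted p = 0.0278). ILMN_2627299 gave 10.95 ± 0.14 and 10.55 ± 0.19, a difference of -0.41 (adjusted p = 0.0244). Both probes moved alike on every array, with gaps of 0.04 ± 0.05 in wildtype and 0.06 ± 0.06 in null cells.

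*Akap9* also fell at its dimmer probes. ILMN_2678495 read 7.94, 8.07, 7.73 and 8.0 in wildtype and 6.85, 7.68, 6.73 and 6.70 in null cells, a difference of -0.94 (SE 0.21, adjusted p = 0.00815). Null replicate 2 stood just below the wildtype arrays at this probe, and the other 3 null arrays lay lower. ILMN_1248214, designed on a cDNA record rather than a RefSeq transcript, read 6.60, 7.14, 6.53 and 7.14 in wildtype and 5.29, 5.31, 5.68 and 5.32 in null cells. The genotypes were well apart there, 2.74-fold lower in null (log2 difference -1.45, SE 0.17, adjusted p = 0.00042). The deposited null signals were 16.6 to 30.1, near background. The size of the difference depended on the background setting, at -0.98 with an offset of 50 and -1.93 with uncorrected background. The fall at ILMN_1248214 exceeded that at ILMN_2627300 by 1.07 on the log2 scale (95% interval 0.69 to 1.45, adjusted p = 0.00763, limma over all pairs). That fit was chosen after seeing the data, and 30.2% of all pairs passed in it. The exact permutation test gave its smallest p of 0.0286 and did not pass after adjustment over the 15 pairs (adjusted p = 0.0714). Between ILMN_2678495 and ILMN_2627300 the differences stood 0.56 apart (95% interval -0.04 to 1.15, limma adjusted p = 0.138, exact permutation p = 0.143), which did not pass.

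*Akap11*, a scaffold for PKA, glycogen synthase kinase 3 and protein phosphatase 1, had 1 of 2 probes past the threshold. At ILMN_2627006 the log2 intensity was 6.89, 6.97, 6.52 and 7.03 in wildtype and 6.15, 5.58, 5.0 and 6.72 in null cells. Null replicate 4 overlapped the wildtype range and null replicate 3 was not above background, and the difference was -0.99 (SE 0.32, adjusted p = 0.0354). At ILMN_2450121 the wildtype arrays ran from 10.40 to 10.79 and the null arrays from 9.92 (replicate 3) to 10.63 (replicate 4), a difference of -0.41 (95% interval -0.79 to -0.02, adjusted p = 0.0827). The order of the null arrays was the same at both *Akap11* probes and at *Akap12* ILMN_2624622, with replicate 4 highest and replicate 3 lowest.

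*Akap10*, which binds both types of PKA regulatory subunit, passed at 1 probe. ILMN_2572969, designed on a cDNA record, read 5.54, 5.94, 5.65 and 5.99 in wildtype and 5.09, 5.38, 5.66 and 4.74 in null cells, where 2 of 4 arrays were above background. The genotypes overlapped through null replicate 3, and the difference was -0.56 (SE 0.20, adjusted p = 0.0451). At ILMN_1220276 the difference was -0.27 (95% interval -0.55 to 0.01, adjusted p = 0.106), with wildtype arrays at 7.93 to 7.98 and null arrays at 7.43 to 7.96. A further *Akap10* probe, ILMN_2645981, was detected on 1 wildtype and 2 null arrays and was not tested.

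*Akap1*, which anchors PKA at the outer mitochondrial membrane, gave 0.10 at ILMN_3146196 (95% interval -0.14 to 0.33, adjusted p = 0.473) and -0.33 at ILMN_1219231 (-0.68 to 0.02, adjusted p = 0.117). The genotypes overlapped at both probes. Of its further probes, ILMN_2422036 and ILMN_2775655 were not above background on any array.

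*Akap8* and *Akap8l* encode related nuclear anchoring proteins of chromatin and RNA processing. *Akap8* ILMN_2920008 measured 9.18 ± 0.12 in wildtype and 9.11 ± 0.16 in null cells (difference -0.07, 95% interval -0.31 to 0.18, adjusted p = 0.647). *Akap8* ILMN_1217938, designed on a cDNA record, read 6.46, 7.33, 6.98 and 6.69 in wildtype and 6.92, 7.87, 7.88 and 6.19 in null cells. Null replicates 2 and 3 were the highest of the 8 arrays there and null replicate 4 the lowest, and the difference of 0.35 had a wide interval (-0.49 to 1.19, adjusted p = 0.473). *Akap8l* ILMN_1242769 measured 10.28 ± 0.13 and 10.53 ± 0.21, a difference of 0.24 (95% interval -0.04 to 0.53, adjusted p = 0.146).

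*Akap13*, a scaffold that also activates the GTPase RhoA, lay close to background. ILMN_2494465 gave a difference of 0.02 (95% interval -0.34 to 0.38, adjusted p = 0.92), and both genotypes spanned nearly the same range. ILMN_2552983, designed on a cDNA record, read 5.33, 5.08, 5.57 and 5.09 in wildtype and 5.66, 5.36, 6.14 and 5.62 in null cells, a difference of 0.43 (95% interval 0.03 to 0.83, adjusted p = 0.0811). This is the probe that was higher at an unadjusted p under 0.05, and its genotypes overlapped. ILMN_2748120 was not above background on any array and ILMN_2767372 on 1 wildtype array only.

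**Figure D3:**
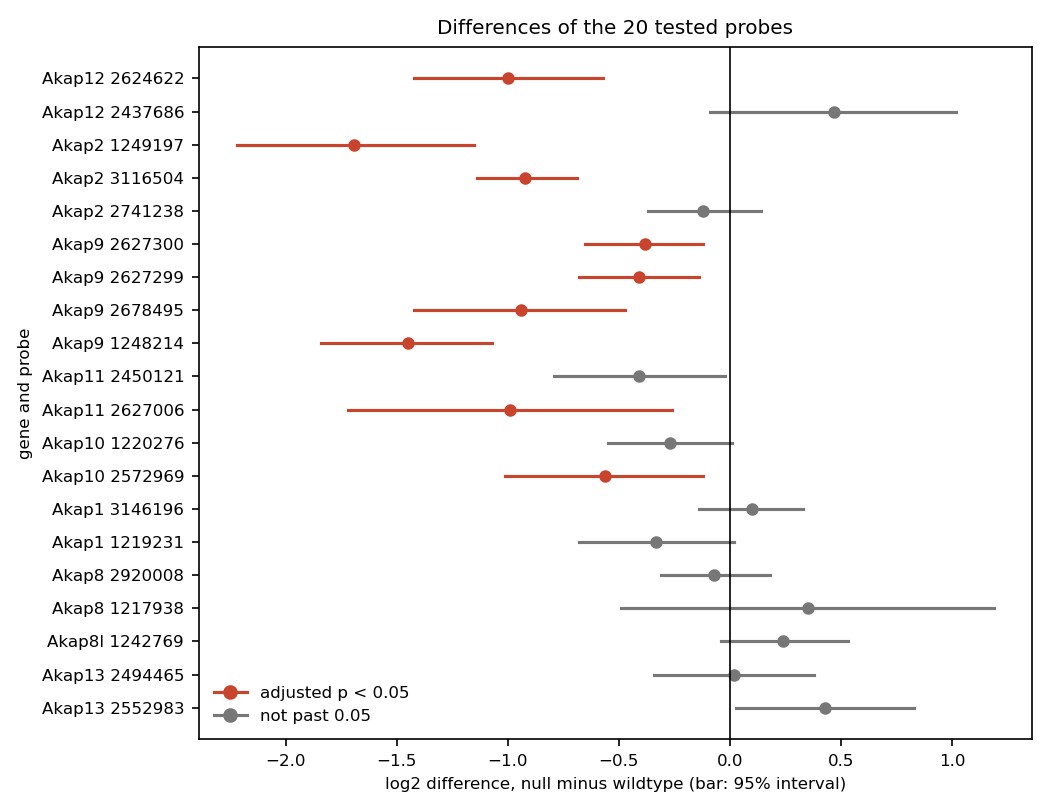
Log2 difference, null minus wildtype (horizontal axis), with its 95% interval for each of the 20 tested probes (vertical axis), in red where the adjusted p was under 0.05. The 9 red probes lie between -1.69 (*Akap2* ILMN_1249197) and -0.38 (*Akap9* ILMN_2627300), and the remaining 11 intervals belong to probes that did not pass.

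The 6 probes placed in the value table only were 3 of *Akap1* and 1 each of *Akap2*, *Akap9* and *Akap10*. At 5 of them the deposited log2 values were the same on each array, -0.39, 0.02, -0.01 and -0.18 for wildtype and 0.43, -0.01, 0.16 and 0.01 for null replicates 1 to 4. The remaining one, *Akap1* ILMN_1233969, differed from these on null replicate 1 only, at 1.28. The shared values were lowest where the array median signal was highest (14.5, wildtype replicate 1) and highest where it was lowest (8.2, null replicate 1). They carry the array medians and give no level of these genes. None of the 6 was tested.

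The calls moved with the scaling between arrays. Median absolute deviation scaling, which the study's methods name, was applied here to log2 signals corrected for background. It is not a repeat of the study's full processing. Under it the median of all probes shifted from 0.04 to 0.29, and *Akap12* ILMN_2624622 went from -1.0 to -0.05 (adjusted p = 0.935). Of the 9 calls 5 were kept there, at both *Akap2* probes, *Akap9* ILMN_1248214 and ILMN_2678495 and *Akap11* ILMN_2627006, while *Akap9* ILMN_2627300 and ILMN_2627299 turned to 0.28 and 0.26 without passing. Under that scaling the share of all calls that were lower in null was 26.9%, beside 48.5% in the main normalisation. Under median centring that share was 69.6%, all 9 calls were kept, and *Akap12* ILMN_2624622 was at -1.06.

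**Figure D4:**
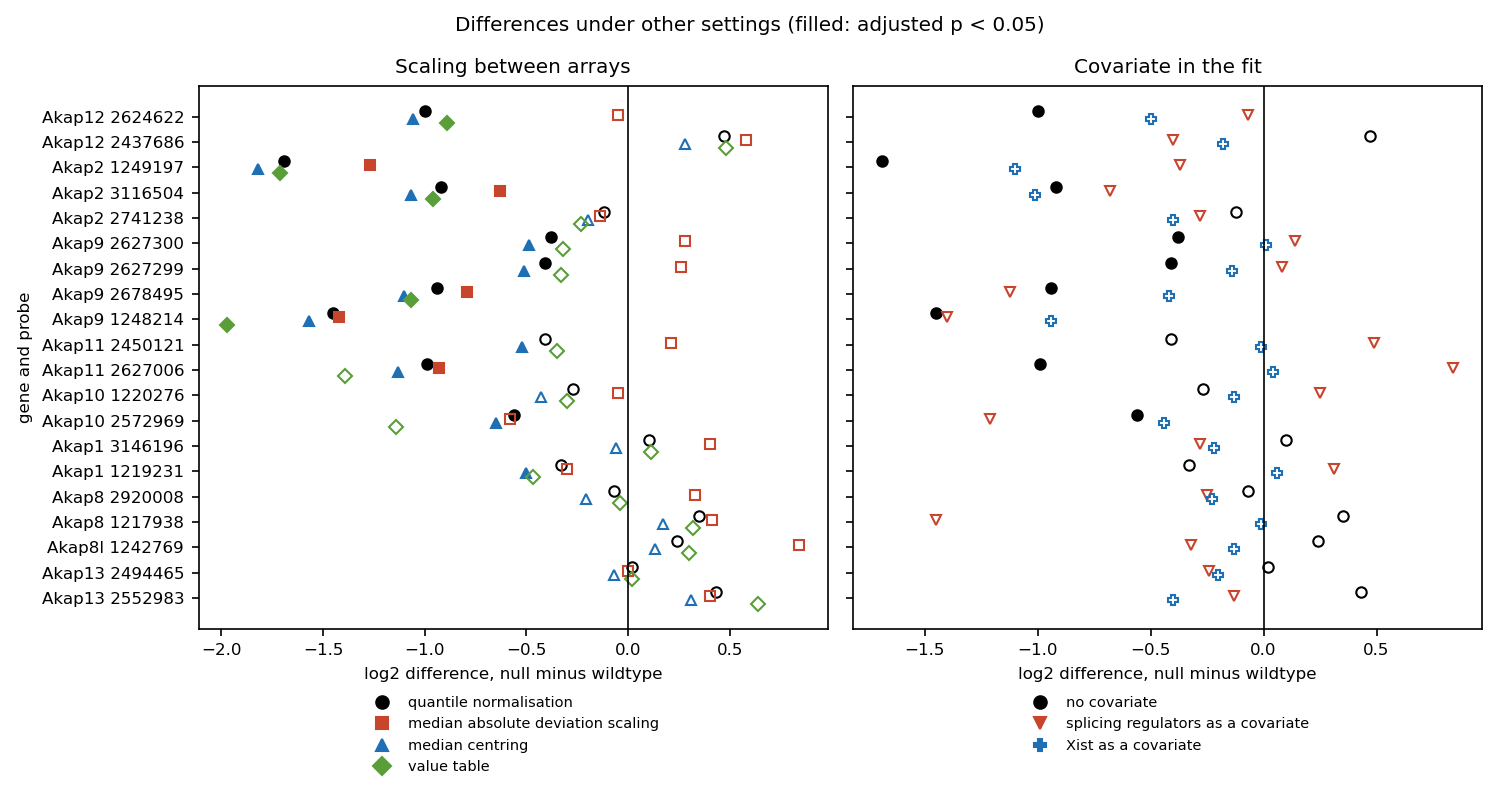
Log2 difference, null minus wildtype (horizontal axes), of the 20 tested probes (vertical axis) under 4 scalings of the arrays (left) and with a covariate in the fit (right), with filled symbols where the adjusted p was under 0.05. Both brighter *Akap2* probes are filled under all 4 scalings, *Akap12* ILMN_2624622 moves to -0.05 under median absolute deviation scaling, and no symbol with a covariate is filled.

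The splicing regulators and *Xist* differed between the genotypes on the same arrays, and 15 of the 27 tested splicing regulators were lower in null cells. With their mean as a covariate none of the 20 member probes passed (4 were lower and 2 higher at an unadjusted p under 0.05, limma), and *Akap12* ILMN_2624622 was at -0.07 (adjusted p = 0.922). With *Xist* as a covariate none passed either (2 lower and 0 higher at an unadjusted p under 0.05), and *Akap12* ILMN_2624622 was at -0.50 (adjusted p = 0.855). *Akap2* ILMN_1249197 gave -0.37 with the splicing regulators (adjusted p = 0.476) and -1.10 with *Xist* (adjusted p = 0.536), and ILMN_3116504 gave -0.68 (adjusted p = 0.103) and -1.01 (adjusted p = 0.0934). *Akap9* ILMN_2678495 was at -1.12 and -0.42 and *Akap10* ILMN_2572969 at -1.21 and -0.44 with the splicing regulators and *Xist*. *Akap9* ILMN_1248214 gave -1.40 with the splicing regulators (adjusted p = 0.0888) and -0.94 with *Xist* (adjusted p = 0.349). Neither measure overlapped between the genotypes, and their part in the differences was not tested. Mural cell markers summed to 5163 to 6484 on wildtype and 7816 to 13243 on null arrays, with a median log2 difference of 0.03. In that list *Acta2*, smooth muscle actin, was higher in null cells by 1.80 (adjusted p = 0.0024) and *Kcnj8* by 0.74 (adjusted p = 0.00279), and the other 6 of 8 genes lay between -0.24 and 0.19 and did not pass. Endothelial markers summed to 965 to 1558 and 842 to 2493, with a median of 0.76. The angiopoietin receptor gene *Tek* was lower by a log2 difference of -1.41 (adjusted p = 1.5e-05) and *Vwf* by one of -0.92 (adjusted p = 0.0198), and the other 6 of 8 tested genes had differences of 0.60 to 1.55 that did not pass. Erythroid markers summed to 929 to 4407 and 619 to 18195, with 0 of 5 tested genes past the threshold and a median of 1.56. Pancreatic epithelium markers summed to 1748 to 2203 and 628 to 1286, with *Pdx1*, *Ptf1a* and *Epcam* among the 5 not tested for low signal. Of the 3 tested, with a median of 0.24, *Sox9* was lower at -1.52 (adjusted p = 0.0007), *Cdh1* higher at 1.32 (adjusted p = 0.0153) and *Cpa1* at 0.24 (adjusted p = 0.301). Of 8 neural crest markers 2 were tested, *Sox10* at 2.63 (adjusted p = 0.0191) and *Ednrb* at -0.31 (adjusted p = 0.0457). Of 4 tested mesothelial markers *Krt8* gave 1.64 (adjusted p = 0.012) and *Lrrn4* 0.69 (adjusted p = 0.00656). *Upk3b* at 0.12 (adjusted p = 0.751) and *Upk1b* at 0.07 (adjusted p = 0.846) did not pass. Their part in the anchoring protein values was not tested.

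Further anchoring proteins outside the 9 genes went both ways. Of 13 tested, each at its brightest probe, 4 were higher and 4 lower in null cells, with a median of 0.20, beside 25.7% higher and 16.8% lower of all 10766 genes, with a median of 0.09. *Map2*, a microtubule-associated protein, rose by 1.26 on the log2 scale (SE 0.17, adjusted p = 0.00078), *Akap5*, a postsynaptic scaffold for PKA and calcineurin, by 0.99 (adjusted p = 0.00112) and *Sphkap* by 0.94 (adjusted p = 0.00104). *Nbea*, a protein of membrane traffic that binds PKA, fell by 1.51 (SE 0.24, adjusted p = 0.00195). *Sphkap* was above background on 1 wildtype array and all 4 null arrays.

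Of the PKA subunits that these proteins tether, 1 of 6 was called higher and 0 lower, beside 25.7% higher and 16.8% lower of all genes. The regulatory subunit *Prkar2a*, of the type II kinase that many anchoring proteins prefer, rose from 7.09 ± 0.24 to 7.85 ± 0.29 (log2 difference 0.76, SE 0.17, adjusted p = 0.00769). The catalytic subunits *Prkaca* and *Prkacb* gave 0.25 (adjusted p = 0.0678) and -0.12 (adjusted p = 0.491). The regulatory subunits *Prkar1a*, *Prkar1b* and *Prkar2b* gave -0.23, 0.18 and 0.21, with adjusted p-values of 0.145, 0.228 and 0.105. Of the heat-stable PKA inhibitors *Pkig* fell by 0.31 on the log2 scale (SE 0.09, adjusted p = 0.025) and *Pkia* gave 0.08 (adjusted p = 0.737).

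Genes that make, destroy and read cAMP went both ways, as all genes did. The counts of this paragraph and the next stand beside 25.7% higher and 16.8% lower of all genes at their brightest probe. Among adenylyl cyclases and G proteins 4 of 11 were higher and 2 lower, with *Adcy2* up by 1.05 (SE 0.10, adjusted p = 0.00013), *Gnai2*, an inhibitory G protein subunit, up by 0.58 (adjusted p = 0.00272), *Adcy4* up by 0.44 (adjusted p = 0.0222), and *Gnas*, the stimulatory subunit, down from 10.30 ± 0.34 to 8.90 ± 0.42 (difference -1.40, adjusted p = 0.00222). Of the 6 tested *Gnas* probes no other was called lower, and ILMN_2580737, given below, was called higher. The next brightest, ILMN_1252926, gave -0.14 (adjusted p = 0.769). Among the cAMP phosphodiesterases 1 of 6 was higher and 2 were lower. *Pde3a* went from 8.03 ± 0.33 to 5.96 ± 0.76 (difference -2.07, SE 0.34, adjusted p = 0.00227) with 3 of 4 null arrays above background, *Pde7a* gave -0.97 (adjusted p = 0.00576), *Pde4b* 0.97 (adjusted p = 0.0202) and *Pde3b* 0.14 (adjusted p = 0.483).

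Both largest differences of the 12 lists lay among the other proteins that bind cAMP, of which 2 of 4 were lower and 2 higher, with a median of -0.92. *Popdc3* and *Bves*, membrane proteins of the Popeye family, fell from 10.11 ± 0.14 to 6.96 ± 0.41 (difference -3.15, adjusted p = 1.6e-05) and from 12.34 ± 0.03 to 10.09 ± 0.14 (difference -2.25, adjusted p = 3.1e-06). Their relative *Popdc2* gave 0.42 (adjusted p = 0.0442) and *Rapgef3*, the cAMP-activated exchange factor Epac1, 0.71 (adjusted p = 0.00968), with *Rapgef3* above background on 1 wildtype array. Of 8 CREB factors and coactivators 3 were higher at the probe brightest over all 8 arrays. These were *Crtc1* by 0.74 (adjusted p = 0.0065), *Crtc3* by 0.85 (adjusted p = 0.0313) and *Creb1* by 0.91 (adjusted p = 0.0422). *Crem* gave 0.13 (adjusted p = 0.286). In wildtype cells another *Crtc3* probe, ILMN_1214578, was brighter (7.70 against 7.39), and it gave -0.11 (adjusted p = 0.477). *Creb1* ILMN_3120454 was also brighter in wildtype cells (6.88 against 5.94), and its difference is given below.

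**Figure D5:**
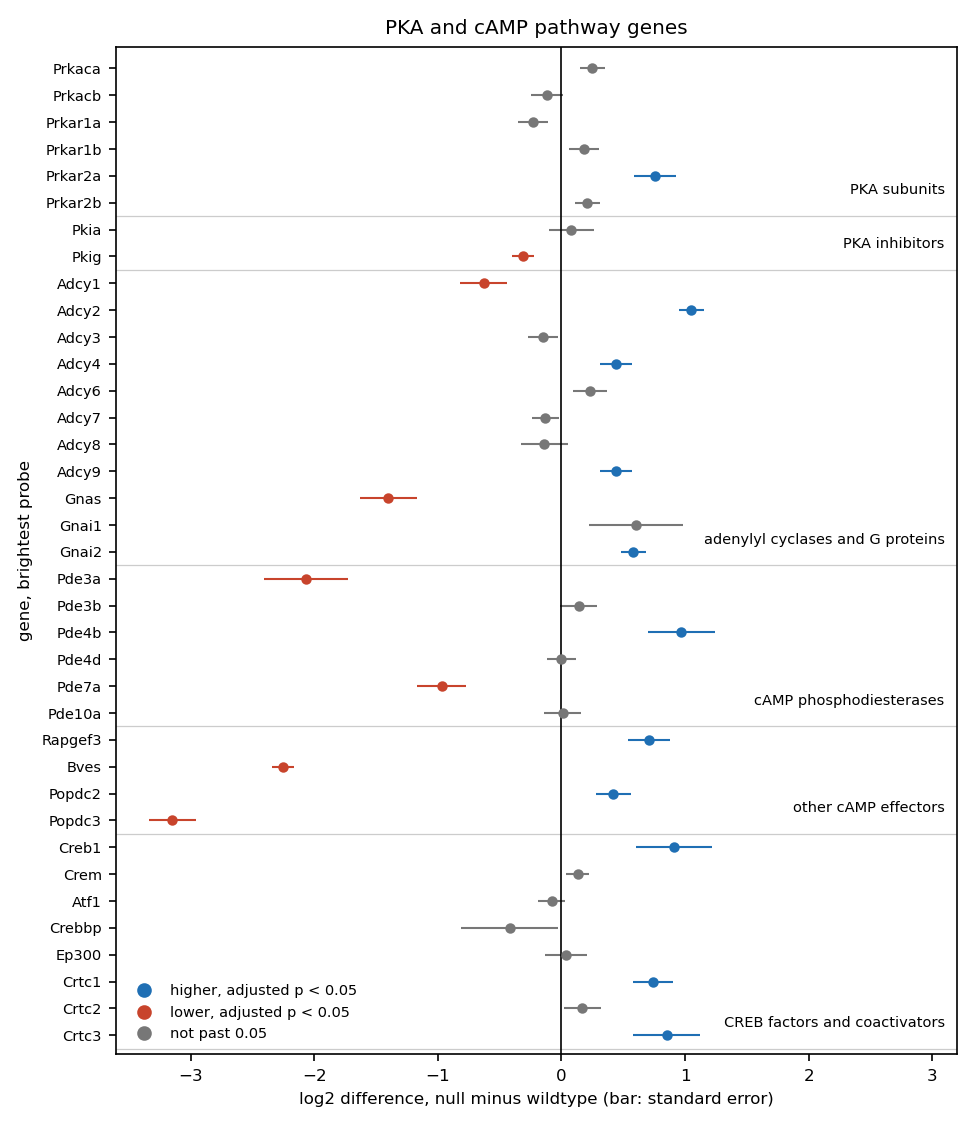
Log2 difference, null minus wildtype (horizontal axis, bar 1 standard error), at the brightest probe of each tested PKA and cAMP pathway gene (vertical axis, grouped by role), blue where higher and red where lower at an adjusted p under 0.05. *Popdc3* (-3.15), *Bves* (-2.25) and *Pde3a* (-2.07) lie furthest to the left and *Adcy2* (1.05) furthest to the right.

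Known partners of the 9 proteins were counted in the same way. Of 11 tested partners of *Akap12*, 2 were higher and 3 lower, with a median of 0.04. The protein kinase C genes split, with *Prkca* at -0.86 (SE 0.11, adjusted p = 0.00059) and *Prkcb* at 0.86 (SE 0.13, adjusted p = 0.00137), *Src* rose by 0.60 (adjusted p = 0.00323), and the calcineurin subunit *Ppp3cb* fell by 0.40 (adjusted p = 0.0248). Of 9 partners of *Akap9* at the centrosome and Golgi, 4 were higher, with a median of 0.29, namely *Csnk1d* (0.36), *Golga2* (0.40), *Tubg1* (0.39) and *Cdk5rap2* (0.35), with adjusted p-values of 0.0156 to 0.0364. Of 10 partners of *Akap1*, *Akap10* and *Akap11*, 4 were lower, with a median of -0.06, the mitochondrial fission GTPase *Dnm1l* (-0.77, adjusted p = 0.00649), *Rab11a* (-1.16, adjusted p = 0.0241), *Gsk3b* (-0.46, adjusted p = 0.0243) and *Ppp1cc* (-0.33, adjusted p = 0.0142). Of 7 partners of *Akap8* and *Akap8l*, 3 were lower and 1 higher, with a median of -0.12. The lamina-associated *Tmpo* gave -1.70 (adjusted p = 0.00206), the RNA helicase *Ddx5*, which is also one of the splicing regulators above, -1.27 (adjusted p = 0.00513), the condensin subunit *Ncapd2* -0.30 (adjusted p = 0.0479) and *Ccnd3* 0.36 (adjusted p = 0.0249). Of 4 partners of *Akap13*, *Map2k3* rose by 0.32 (adjusted p = 0.0153), *Prkd1* fell by 0.67 (adjusted p = 0.0158), and *Mapk14* and *Map3k20* gave -0.15 and 0.05 (adjusted p = 0.223 and 0.813). Over all 12 lists, each gene counted once, 23 of 91 tested genes (25.3%) were higher and 22 (24.2%) lower, with a median of 0.07, beside the 25.7% higher and 16.8% lower of all genes, with a median of 0.09. In 4 of these genes 2 probes were called in opposite directions. *Creb1* ILMN_3120454 gave -1.04 (adjusted p = 0.00091), *Gsk3b* ILMN_2593888 gave 1.27 (adjusted p = 0.0242) and *Gnas* ILMN_2580737 gave 0.61 (adjusted p = 0.0357), against the values above, and *Calm2*, a calmodulin gene, gave 0.69 (adjusted p = 0.00841) at ILMN_2451115 and -0.81 (adjusted p = 0.0358) at ILMN_2856697. The counts of these lists hold for the brightest probe only.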

How the data were processed

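Total RNA of FACS-sorted cells was amplified, biotin-labelled and hybridised to Illumina MouseWG-6 BeadChips, 1 array for each of 4 wildtype and 4 null samples. The intensity values were deposited by the authors as signals per probe, background-subtracted in GenomeStudio (named in the submitters' processing notes, version not given in the sources used here) and not normalised between arrays. The p-value columns deposited with them give 1 for the brightest probes and were therefore read as 1 minus the detection p. The log2 values of the value table deposited by the authors equal the log2 signal minus the array median and a value per probe of unstated origin, and served as an alternative.

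Both tables hold 45281 probes. Signals were joined to probe names by their profile over the 8 arrays, and 34536 probes joined uniquely. Signals were corrected and quantile normalised by neqc (offset 16) with limma 3.58.1 and statmod 1.5.0 in R 4.3.3. The 19841 probes detected (p under 0.05) on at least 4 arrays were fitted with genotype as the only factor (lmFit, eBayes, two-sided, Benjamini-Hochberg over all of them), and the fit was checked on simulated data. Log2 differences and folds are on this scale, where the offset understates changes of dim probes. The study's methods scaled arrays by the median absolute deviation and used ANOVA, and both are alternatives here.

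Gaps between probes of one gene were compared by an exact permutation test over the arrays. Listed genes outside the 9 were read at their brightest tested probe, by the mean over all 8 arrays. Named were all member probes, up to 4 genes per list by absolute moderated t, all PKA subunits and inhibitors, and the 5 genes most correlated with each *Akap12* probe, placeholder names left out. The members and the lists were chosen with earlier results of these data known. The alternatives were no filter, a 20th percentile filter or detection at p under 0.01 on all 8 arrays, an offset of 50 or uncorrected background, the value table, scaling by median absolute deviation or by the median, the methods' t-test, a replicate block, splicing regulators or *Xist* as a covariate, 1 probe per gene, and each array left out. The number of arrays limits the precision, no source ties the replicates to separate litters, and p-values measure the spread between these samples. Probe positions and sequences were not used here.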

Additional observations from a re-analysis of the deposited data

Results flagged for a closer look

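In 4 of the 40 groups of 4 arrays (20 probes in each genotype), 1 array stood far from the other 3, where chance flags about 1 group in 20. At *Akap8* ILMN_2920008 null replicate 1 had a log2 intensity of 8.87 against 9.17 to 9.21 on the other null arrays. At *Akap9* ILMN_1248214 null replicate 3 was at 5.68 against 5.29 to 5.32. At *Akap9* ILMN_2678495 null replicate 2 was at 7.68 against 6.70 to 6.85. At *Akap10* ILMN_1220276 wildtype replicate 1 was at 7.98, and the other wildtype arrays all rounded to 7.93.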

How the results depend on the processing

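The count of 9 member probes called lower became 5 under median absolute deviation scaling and 5 in the value table. With 1 probe per gene it was 3 of 9 genes. It was 0 with the splicing regulators and 0 with *Xist* as a covariate (4 and 2 at an unadjusted p under 0.05, limma). Lower calls over all 19841 tested probes went from 4032 to 1681 under median absolute deviation scaling and 3281 in the value table. They were 408 with the splicing regulators and 105 with *Xist*, and 1910 of 10766 with 1 probe per gene. The pathway lists, with 22 genes lower and 23 higher, had 10 lower under median absolute deviation scaling, 14 lower in the value table, 12 higher under median centring, 3 lower and 5 higher with the splicing regulators, and 2 lower and 1 higher with *Xist*. *Akap12* ILMN_2624622 went from -1.0 to -0.05, -0.07 and -0.50 under median absolute deviation scaling, splicing regulators and *Xist*. ILMN_2437686 went from 0.47 to -0.40 and -0.18 with the covariates. In the value table these probes gave -0.89 and 0.48. With 1 array left out the member probes numbered 5 to 10 lower and 0 to 2 higher, the lists 14 to 22 lower and 13 to 27 higher, ILMN_2624622 ranged from -1.14 to -0.83, ILMN_2437686 from 0.24 to 0.63 and the *Akap12* gap change from -1.77 to -1.07. The 5 lower probes were reached without wildtype replicate 1, 2 or 4 or null replicate 2, each time by loss of *Akap9* ILMN_2627299 and ILMN_2627300, *Akap10* ILMN_2572969 and *Akap11* ILMN_2627006, and without null replicate 4 *Akap12* ILMN_2437686 and *Akap8l* ILMN_1242769 passed as higher. The methods' t-test, no filter, no background correction and the 20th percentile filter each lost *Akap10* ILMN_2572969 and *Akap11* ILMN_2627006 only. Over all alternatives the adjusted p ran from 0.00116 to 0.935 for ILMN_2624622 and from 0.0469 to 0.991 for ILMN_2437686. Of all tested probes 8312 passed, beside 984 with the splicing regulators and 304 with *Xist*. The cause of these moves was not tested.

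Signs also turned in other probes, among them *Akap9* ILMN_2627299 and ILMN_2627300, which had passed at -0.41 and -0.38. Under median absolute deviation scaling *Akap8* ILMN_2920008 was 0.33, *Akap9* ILMN_2627299 and ILMN_2627300 were 0.26 and 0.28, *Akap11* ILMN_2450121 was 0.21 and *Akap13* ILMN_2494465 was -0.00. Median centring gave *Akap1* ILMN_3146196 -0.06 and *Akap13* ILMN_2494465 -0.07. With the splicing regulators *Akap1* ILMN_1219231 and ILMN_3146196 were 0.31 and -0.28, *Akap8* ILMN_1217938 -1.45, *Akap8l* -0.32, *Akap9* ILMN_2627299 and ILMN_2627300 0.08 and 0.14, *Akap10* ILMN_1220276 0.25, *Akap11* ILMN_2450121 and ILMN_2627006 0.49 and 0.84, and *Akap13* ILMN_2494465 and ILMN_2552983 -0.24 and -0.13. With *Xist* *Akap1* ILMN_1219231 and ILMN_3146196 were 0.06 and -0.22, *Akap8* ILMN_1217938 -0.01, *Akap8l* -0.13, *Akap9* ILMN_2627300 0.01, *Akap11* ILMN_2627006 0.04, and *Akap13* ILMN_2494465 and ILMN_2552983 -0.20 and -0.40. With 1 array left out *Akap13* ILMN_2494465 ranged from -0.07 to 0.11 and *Akap8* ILMN_2920008 from -0.11 to 0.01.

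With the replicate number as a block 8 of the 9 calls were kept, *Akap10* ILMN_2572969 was lost and 1 probe, *Akap13* ILMN_2552983, passed as higher, and *Akap12* stood at -1.0 (adjusted p = 0.00356) and 0.47 (adjusted p = 0.142). Deviations of same-numbered arrays correlated at 0.168, 0.0692, 0.377 and 0.408 and those of different numbers from -0.441 to 0.385. Since 0.0692 is not over 0.1 and not every array correlated best with its own number, the arrays were taken to share only a number. The exact test called 0 of 15 probe pairs, under other scalings and with 1 array left out too, but could call none unless at least 9 pairs had its smallest p, so this count says nothing about stability. In the limma fit over all pairs, chosen after seeing the data, 6 of 15 passed, beside 30.2% of all 8384 pairs. The *Akap12* pair is among the 15 and was kept apart for its known disagreement, so this count is no support for its gap. The *Akap12* gap change, given as a description, was -1.46. Under median absolute deviation scaling it was -0.63, and in the value table -1.37. Low signal limits *Akap13*, *Akap2* ILMN_2741238, *Akap10* ILMN_2572969, *Akap11* ILMN_2627006 and *Akap9* ILMN_1248214. Their levels lie near background, for the *Akap9* and *Akap11* probes in null cells.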
